A study of Homo sapiens with 6 samples.

Results

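The enzymes that write and erase DNA methylation were examined in RNA-seq libraries of HCT116 cells, a human colorectal cancer cell line, with and without LSD1, a histone H3K4 demethylase encoded by KDM1A. The group held 10 genes (DNMT1, DNMT3A, DNMT3B, DNMT3L, UHRF1, UHRF2, TET1, TET2, TET3 and TDG) chosen by symbol and not by their expression, out of 60240 genes in the deposited table, and all 10 were matched by their Ensembl identifiers. There were 3 libraries of wild-type HCT116 cells (WT) and 3 libraries of HCT116 cells in which LSD1 had been knocked out (LSD1 KO), and both groups were numbered 1 to 3. The knockout was made with a CRISPR guide against exon 1 of LSD1 followed by transient drug selection and the growth of individual clones, and how many clones went into the libraries is not given in the sources used here. The polyadenylated RNA was prepared from cells of a single line in one medium, and the labels name no treatment or time. The paper examined whether DNA methylation at promoters follows H3K4 methylation in these cells, and the comparison below asks whether the transcripts of the DNA methylation machinery differed between LSD1 KO and WT cells.

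DNA methylation in mammals is carried mainly by cytosines of CpG dinucleotides. DNMT3A and DNMT3B place it on unmethylated DNA, helped by the catalytically inactive DNMT3L, and DNMT1 copies it to the daughter strand after replication, guided there by UHRF1, which recognises half-methylated CpG sites. TET1, TET2 and TET3 oxidise 5-methylcytosine, and the glycosylase TDG cuts out the oxidised forms so that base excision repair can restore cytosine. HCT116 cells are a common model of this machinery, because they survive the loss of DNMT3B and are known for methylated CpG islands. LSD1 is also known to act on proteins other than histones, DNMT1 among them, and protein levels were not measured here.

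Total counts ranged from 25379279 to 29186963 per library, and the floor of 3 counts equalled 0.103 to 0.118 CPM, which are counts scaled to a library of 1000000. The LSD1 gene itself, KDM1A, had 6119, 5927 and 6451 counts in WT libraries 1 to 3 and 837, 749 and 734 counts in LSD1 KO libraries 1 to 3. Its LSD1 KO mean was 12.7% of the WT mean, and edgeR put the log2 fold change at -2.97 ± 0.15 (standard error) with a q value of 0.000451, so the libraries matched their labels. Of 6 epithelial markers, 5 were above 1 CPM, while VIL1 stayed at 0.30 CPM or less in every library. The summed epithelial level was 2029 to 3795 CPM in WT and 2404 to 3138 CPM in LSD1 KO libraries. Fibroblast markers summed to 20.5 to 24.2 CPM in WT and 30.3 to 34.4 CPM in LSD1 KO libraries, nearly all of it from COL1A1, and LUM was at 0 in every library. Leukocyte markers summed to 17.7 to 20.9 CPM and 23.3 to 34.6 CPM, nearly all of it from CD68, and CD3E was at 0 in every library.

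Differences between the groups were tested in edgeR by quasi-likelihood F test, with Benjamini-Hochberg adjustment over the 17672 genes that passed the filter on low counts, and q values under 0.1 were counted as calls. Of the members, 9 could be tested, all but DNMT3L. LSD1 KO and WT libraries that carried the same number deviated from their group means together, so a second fit held the replicate number as a block. The labels do not say whether the numbered libraries came from separate cultures, and the paper states only in general that its experiments had biological replicates, so the p-values measure the spread between these libraries, which may be technical. In bulk RNA, fewer cells that express a gene and less of its RNA per cell cannot be told apart.

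The promoters of these genes differ in how much of the substrate of their own enzymes they carry. RefSeq windows (GRCh38.p14) from 250 bases before to 50 bases after a transcription start were available for 9 of the 10 members, and for 8 of them at the start of the canonical transcript. These 8 windows held 10 to 46 CpG dinucleotides, beside a median of 14 over all RefSeq windows. Their CpG content was 0.463 (TET1) to 1.029 (TET2) of that expected from base composition, beside a median of 0.577 over all windows. A set of 3 upstream stretches, trimmed where they run into annotated exons, are shown because they cover the range from few to many CpG dinucleotides and belong to members described in detail below. Each is written 5′ to 3′ on the plus strand with every CG in capitals.
TET1, chr10:68560087-68560336, 9 CpG in 250 bases: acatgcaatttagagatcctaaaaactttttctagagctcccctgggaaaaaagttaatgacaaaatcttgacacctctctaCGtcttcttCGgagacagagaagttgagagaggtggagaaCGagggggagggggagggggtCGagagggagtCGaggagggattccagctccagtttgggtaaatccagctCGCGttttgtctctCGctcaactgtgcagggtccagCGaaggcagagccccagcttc
UHRF1, chr19:4909251-4909429, 19 CpG in 179 bases: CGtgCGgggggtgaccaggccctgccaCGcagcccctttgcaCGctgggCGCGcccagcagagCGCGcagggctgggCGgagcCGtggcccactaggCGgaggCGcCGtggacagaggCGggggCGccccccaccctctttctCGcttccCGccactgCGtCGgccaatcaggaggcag
TET3, chr2:73984660-73984909, 37 CpG in 250 bases: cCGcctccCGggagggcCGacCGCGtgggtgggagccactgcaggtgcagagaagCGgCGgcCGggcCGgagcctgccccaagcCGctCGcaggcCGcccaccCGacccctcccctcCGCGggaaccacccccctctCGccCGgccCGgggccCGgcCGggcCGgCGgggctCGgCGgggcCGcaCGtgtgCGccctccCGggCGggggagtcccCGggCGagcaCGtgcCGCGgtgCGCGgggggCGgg
TET1 and TET3 encode enzymes of the same family, and the TET3 stretch holds more CG pairs in the same length. The E2F motifs TTTGGCGC and TTTCCCGC were searched on both strands, and 1 of the 8 windows, that of UHRF1, held either of them, in the part that is not printed, beside 2.26% of all windows. CCAAT was found in 2 of the 8 windows (UHRF1 and TDG), beside 34.65% of all windows, and TATAAA in 0 of the 8, beside 11.57%. A match is a description of the letters and not evidence that a factor binds there.

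Per transcript length, the maintenance pair stood far above the other members. To compare genes, counts were divided by the length of the canonical transcript and scaled to a sum of 1000000 per library, which is written TPM here. In WT libraries, UHRF1 reached 128.1 ± 25.2 TPM (SD, n = 3) and DNMT1 126.0 ± 27.8 TPM, and their ranges overlapped. UHRF2, a UHRF1 paralog that cannot replace it in maintenance, followed at 32.7 ± 5.43 TPM, and TDG stood at 23.6 ± 2.88 TPM. The de novo enzyme DNMT3B was at 17.8 ± 4.63 TPM. TET3 and DNMT3A lay next to each other at 6.0 ± 2.69 TPM and 5.70 ± 1.22 TPM, TET2 at 3.44 ± 1.87 TPM and TET1 at 1.21 ± 0.72 TPM. The WT ranges of DNMT1 and UHRF2, of UHRF2 and TDG, and of DNMT3B and TET3 did not overlap, whereas those of TDG and DNMT3B, TET3 and DNMT3A, DNMT3A and TET2, and TET2 and TET1 did. With the longest transcript of each gene the order was the same, and with merged exons UHRF2 and TDG exchanged places. Merged exons, which lengthen some genes more than others, moved the WT level of DNMT1 to 71.3 TPM and of UHRF2 to 19.5 TPM, and put UHRF1 at 160.4 TPM, TET3 at 9.20 TPM and TET1 at 1.98 TPM, so the near equality of UHRF1 and DNMT1 rests on the canonical lengths.

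**Figure D1:**
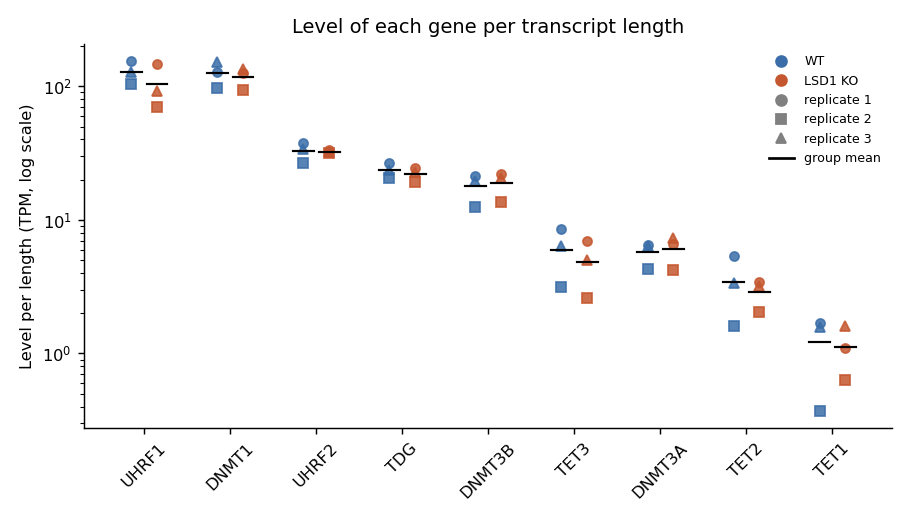
Level per transcript length (TPM, log scale) of the 9 members with counts in WT libraries, ordered by the WT mean, with WT in blue, LSD1 KO in orange, one symbol per replicate number and a line at each group mean. UHRF1 and DNMT1 sit near 128.1 and 126.0 TPM in WT, and squares (replicate 2) are the lowest of each set of 3.

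DNMT3L, the cofactor of the de novo enzymes in germ cells, was not detected. All WT libraries held 0 counts, and LSD1 KO libraries 1 to 3 held 1, 0 and 0 counts, under the floor of 3 counts. Of the 31-base sequences of its transcripts, 30.2% also occur in other annotated genes, so even the 1 count is uncertain. The exact permutation test gave p = 1.0 for DNMT3L, and with 3 libraries against 3 it cannot go below 0.1.

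For none of the 9 members tested did a difference between LSD1 KO and WT cells pass the test. Members called numbered 0 of 9 without the replicate block, where 0.00566% of all genes tested were called, and 0 of 9 with it, where 1.6% were. DESeq2 called 0 of the members as well, beside 0.37% of all genes without and 3.96% with the block. At an unadjusted p under 0.05, 0 members passed without the block (3.12% of all genes) and 2, UHRF1 and TET3, with it (13.4% of all genes, or 6.19% counting only genes lower in LSD1 KO). No member had groups that did not overlap, beside 7.74% of all genes. All 9 of the 95% intervals lay within a log2 fold change of -1 to 1 with the block, and 7 of 9 did without it, all but TET1 and TET3. The block rests on a pairing inferred from the same data. These intervals reflect the spread between these libraries, which may be technical, so they do not bound a difference between separate cultures or clones.

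**Figure D2:**
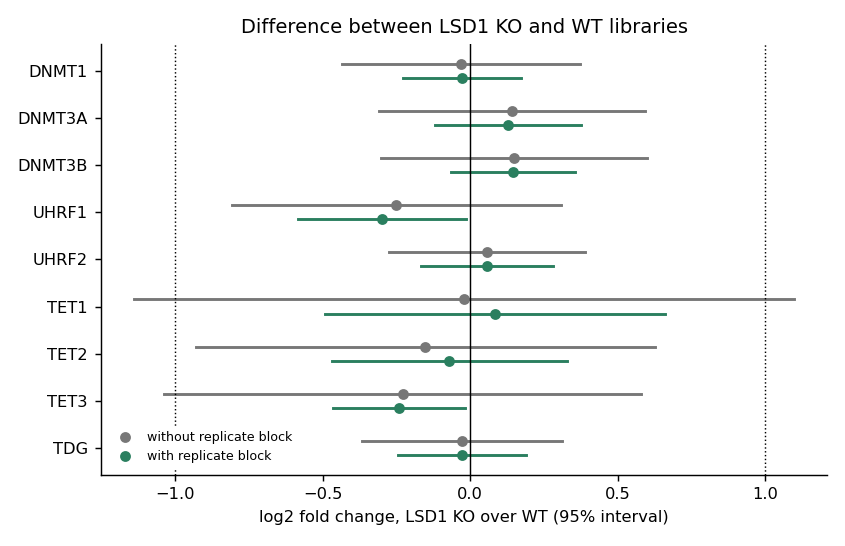
Log2 fold change of each tested member, LSD1 KO over WT, with its 95% interval, in grey without and in green with the replicate block, and dotted lines at -1 and 1. Grey intervals of TET1 and TET3 cross a dotted line, and no green one does.

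DNMT1 (ENSG00000130816, chromosome 19 from 10133346 to 10194953), the maintenance enzyme, had 292, 276 and 356 CPM in WT libraries 1 to 3 and 312, 266 and 328 CPM in LSD1 KO libraries 1 to 3. The LSD1 KO values fell inside the WT range except for that of replicate 2, which was lowest in both groups. The log2 fold change was -0.03 (95% interval -0.44 to 0.37, q value 0.999 from edgeR), on means of 308 ± 42.5 CPM and 302 ± 32.3 CPM (SD, n = 3 each). DNMT1 made up 81.4% to 85.5% of the summed level per length of the 3 catalytic DNMT genes in every library.

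DNMT3A (ENSG00000119772, chromosome 2 from 25227874 to 25342590), a de novo enzyme, had 26.3, 21.7 and 26.5 CPM in WT libraries 1 to 3 and 29.3, 21.3 and 31.7 CPM in LSD1 KO libraries 1 to 3. Its LSD1 KO libraries spread on both sides of the WT range. The log2 fold change was 0.14 (95% interval -0.31 to 0.59, q value 0.999 from edgeR). DNMT3B (ENSG00000088305, chromosome 20 from 32762385 to 32809356), the other de novo enzyme and the more abundant per length, had 40.0, 29.3 and 37.5 CPM in WT libraries and 45.1, 31.7 and 41.6 CPM in LSD1 KO libraries. In DNMT3B the LSD1 KO library was the higher one in 3 of 3 same-numbered pairs, by 0.17, 0.11 and 0.15 on the log2 scale. That difference was smaller than the spread between replicates of one group, with a log2 fold change of 0.15 (95% interval -0.30 to 0.60, q value 0.999 from edgeR) without and 0.15 (95% interval -0.07 to 0.36, q value 0.547) with the replicate block.

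UHRF1 (ENSG00000276043, chromosome 19 from 4903080 to 4962154), which brings DNMT1 to replicated DNA, had 259, 217 and 219 CPM in WT libraries 1 to 3 and 271, 146 and 167 CPM in LSD1 KO libraries 1 to 3. LSD1 KO libraries 2 and 3 lay below all WT libraries, and LSD1 KO library 1 lay above them. The log2 fold change was -0.25 (95% interval -0.81 to 0.31, q value 0.999 from edgeR), and -0.30 (95% interval -0.58 to -0.01, q value 0.350) with the block. After replicate 1 was left out of the fit with the block, UHRF1 was called, at a log2 fold change of -0.48 and a q value of 0.083, and it was called in no other of its 15 alternative fits. A list of 16 S phase genes also held MKI67, TOP2A and CDK1, which mark proliferation more broadly. Its summed level was 4743, 3754 and 3710 CPM in WT libraries 1 to 3 and 4700, 2982 and 3284 CPM in LSD1 KO libraries 1 to 3. This sum too was lower in LSD1 KO in pairs 2 and 3 and nearly equal in pair 1. The part of S phase expression in the UHRF1 values was not tested. Of the 31-base sequences of UHRF1 transcripts, 26.8% also occur in other genes. Among these were the pseudogene copy ENSG00000256663, which held 1 to 7 counts per library, and STAT2 and RARS2. The most expressed of the genes named reached 1369 counts in a library.

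UHRF2 (ENSG00000147854, chromosome 9 from 6413199 to 6507054) was among the steadiest members, with 57.9, 51.5 and 53.9 CPM in WT libraries 1 to 3 and 56.1, 60.7 and 53.2 CPM in LSD1 KO libraries 1 to 3. The ranges of the groups overlapped. Its log2 fold change was 0.06 (95% interval -0.27 to 0.39, q value 0.999 from edgeR). The ratio of UHRF1 to DNMT1 per length was 1.2, 1.06 and 0.833 in WT libraries and 1.18, 0.745 and 0.691 in LSD1 KO libraries, so the groups overlapped, while the LSD1 KO library was the lower one in 3 of 3 pairs. This ratio was not tested.

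**Figure D3:**
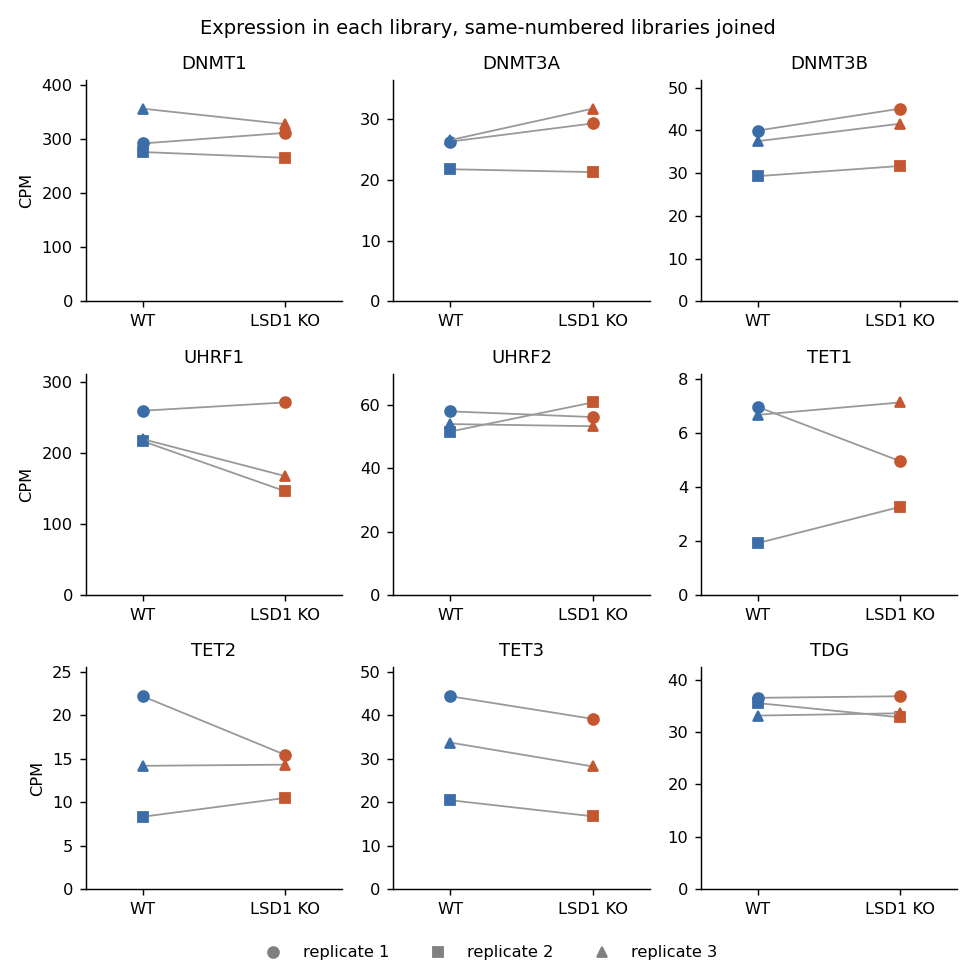
Expression (CPM, each axis from 0) of the 9 tested members in each library, with WT in blue, LSD1 KO in orange, and a grey line between libraries that carry the same replicate number. Lines run nearly flat for DNMT1 and TDG and slope down in 3 of 3 pairs for TET3. Lines cross for TET1, and for TET2 they draw together without crossing.

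Among the erasers, TET1 (ENSG00000138336, chromosome 10 from 68560337 to 68694487) had 6.98, 1.93 and 6.68 CPM in WT libraries 1 to 3 and 4.96, 3.28 and 7.15 CPM in LSD1 KO libraries 1 to 3. The lowest and the next lowest value were the replicate 2 libraries of WT and LSD1 KO. The log2 fold change of TET1 was -0.02 (95% interval -1.14 to 1.10, q value 0.999 from edgeR), and 0.09 (95% interval -0.49 to 0.66) with the replicate block, so its direction was not determined. TET2 (ENSG00000168769, chromosome 4 from 105145875 to 105279803) had 22.2, 8.32 and 14.2 CPM in WT libraries and 15.5, 10.5 and 14.3 CPM in LSD1 KO libraries. Its LSD1 KO libraries all lay inside the WT range, with a log2 fold change of -0.15 (95% interval -0.93 to 0.63, q value 0.999 from edgeR).

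TET3 (ENSG00000187605, chromosome 2 from 73983631 to 74135498), the most abundant TET gene per length in these cells, had 44.4, 20.5 and 33.8 CPM in WT libraries 1 to 3 and 39.2, 16.7 and 28.2 CPM in LSD1 KO libraries 1 to 3. In TET3 the LSD1 KO library was lower in 3 of 3 pairs, by small and similar amounts of -0.18, -0.29 and -0.26 on the log2 scale. The groups overlapped, because replicates of one group differed by more than the pairs did. The log2 fold change was -0.23 (95% interval -1.04 to 0.58, q value 0.999 from edgeR), and -0.24 (95% interval -0.46 to -0.02, q value 0.337) with the block, which was not called. TDG (ENSG00000139372, chromosome 12 from 103965872 to 103988874), the glycosylase that follows TET oxidation, was steady at 36.5, 35.5 and 33.1 CPM in WT libraries and 36.8, 32.8 and 33.6 CPM in LSD1 KO libraries, a log2 fold change of -0.03 (95% interval -0.36 to 0.31, q value 0.999 from edgeR). Of the 31-base sequences of TDG transcripts, 14.45% also occur elsewhere. Among the genes that share them were the pseudogene TDGP1, which held 0 to 3 counts per library, ENSG00000288744 and C2orf92. Of these, 1 is absent from the deposited table, and the highest count of the others in a library was 19.

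More members were called by replicate number than by genotype. A test of the replicate number in the fit with the block, added after the data had been seen, called 7 of the 9 members, beside 41.2% of all genes tested. By q value from edgeR these were TET3 (0.00263), TET1 (0.0251), TET2 (0.0261), DNMT3B (0.0310), UHRF1 (0.0387), DNMT3A (0.0698) and DNMT1 (0.0938), whereas TDG (0.597) and UHRF2 (0.806) were not called. In the same 7 members replicate 2 was the lowest library of both groups, beside 26% of all genes. On the scale per length, on which the median tested gene was itself lower in replicate 2 by -0.25 (log2), replicate 2 was lowest in both groups for all 9 tested members, beside 43.4% of all genes, so that the direction for UHRF2 and TDG depended on the scale. Without replicate 2 in the fit, 3 members (TET2, TET3 and UHRF1) were called by replicate number. All genes called fell too, from 7273 to 4740. The share of all genes tested was not computed for that fit, so it does not show whether members were called more often than other genes.

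Averaged over both groups, the TET genes had the widest gaps between replicate 2 and the other replicates among the members tested. TET1 in replicate 2 stood at 28.2% of the geometric mean of replicates 1 and 3 in WT and at 55.0% in LSD1 KO cells. The counts were 51 against 185 and 202 in WT and 89 against 139 and 189 in LSD1 KO cells. TET2 stood at 46.8% and 70.5%, and TET3 at 52.8% and 50.3%. All 3 were thus low in this replicate in both genotypes. The DNMT genes and UHRF1 stood between 68.6% and 90.8% of the other replicates. In LSD1 KO cells UHRF1 (68.6%) and DNMT3A (69.8%) were slightly further below the other replicates than TET2.

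This pattern moved together with transcript length. In the 10% of tested genes with the longest canonical transcripts, from 7.039 kb up, the median log2 difference of replicate 2 from replicates 1 and 3 was -0.39 (quartiles -0.65 and -0.12), and in the 10% with the shortest it was 0.15. DNMT3A, with a 9.42 kb transcript, had a difference of -0.40, close to that median. TET2 (9.59 kb) at -0.80, TET3 (12.06 kb) at -0.96 and TET1 (9.61 kb) at -1.34 lay below the lower quartile of their length class. UHRF1 (3.9 kb) at -0.34 and DNMT3B (4.34 kb) at -0.43 did so too, against lower quartiles of -0.27 and -0.34, whereas DNMT1 (5.27 kb) at -0.25 was near the median of its class. UHRF2 (3.58 kb) at 0.02 and TDG (3.18 kb) at -0.04 were near 0, as was the median of genes of that length. The difference also varied with GC content, with a median of 0.42 in the 10% of genes with the highest GC content and of -0.11 in the bin that holds TET1 (42.1% GC) and TET2 (41.2% GC). The other 5 members that were low in replicate 2 belong to bins with medians of the opposite sign, 0.028 for TET3, DNMT3A, DNMT3B and DNMT1 (53.2% to 54.9% GC) and 0.11 for UHRF1 (55.7% GC). The parts of transcript length and GC content in the member values were not tested, and the labels give no batch by which replicate 2 differed.

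**Figure D4:**
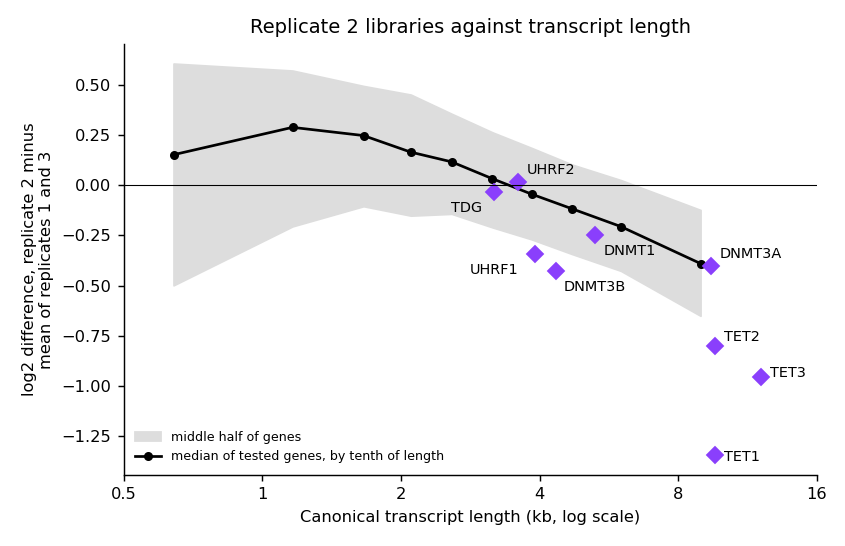
Log2 difference of CPM between replicate 2 and the mean of replicates 1 and 3, averaged over both groups, against canonical transcript length (kb, log scale), with members as purple diamonds, the median of tested genes in bins of 10% of the genes by length as a black line and the middle 50% of genes in grey. The line falls from 0.29 in the next to shortest bin to -0.39 in the longest, and TET1, TET2 and TET3 lie lower than the edge of the grey band.

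The balance of writers to erasers overlapped between the genotypes and was highest in replicate 2 of both. The summed level per length of DNMT1, DNMT3A and DNMT3B was 10.0, 22.2 and 15.9 times that of TET1, TET2 and TET3 in WT libraries 1 to 3 and 13.5, 21.2 and 16.4 times in LSD1 KO libraries 1 to 3. The spread within a group was wider than the distance between same-numbered libraries of the groups. DNMT1 stood at 4.61, 5.78 and 5.90 times the sum of DNMT3A and DNMT3B in WT and at 4.37, 5.26 and 4.80 times in LSD1 KO libraries, lower in LSD1 KO in 3 of 3 pairs and also not tested.

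The genes whose log2 CPM followed the members most closely over the 6 libraries, among 14798 genes of at least 1 CPM, are given as a description, since the libraries share depth, composition and replicate number. For DNMT1 they included ELFN2 and MYH9 (Pearson's r 0.991 and 0.990). UHRF1 was followed by DDX11, a DNA helicase of sister chromatid cohesion, by WDR6 and by ENSG00000286231 (0.997, 0.996 and 0.992). DNMT3B was followed, among others, by PDE6A and KLHL8 (0.996 and 0.995).

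Around the members, few genes of the partner and supply lists were called. Without the replicate block, edgeR called 0 genes of the lists of this pathway, and the values below give the fit with the block where it changed a call. Of 13 maintenance partners, such as the remodelling factor HELLS and the replication clamp PCNA, 13 were tested and 0 called, with a median log2 fold change of -0.10 beside 0.001 for all genes. PCNA had 271 ± 55.5 CPM in WT and 230.5 ± 32.1 CPM in LSD1 KO cells (log2 fold change -0.23), and its binding partner PCLAF had 87.2 ± 18.9 and 75.8 ± 12.0 CPM (-0.20). The 5 H3K36 methyltransferases, whose mark guides DNMT3A and DNMT3B, were also not called, with log2 fold changes of -0.13 for NSD1 and 0.12 for ASH1L. All 5 were lowest in replicate 2 of both groups (26% of all genes) and called by replicate number (41.2% of all genes), with a median log2 difference of -0.81. The TET genes shared this, and the part of transcript length in it was not tested. The 10 proteins that read methylated CpG sites had a median of 0.05 and 0 calls, and MBD5 among them had a log2 fold change of 0.17.

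The TET cofactors and partners gave 0 calls of 10, with a median log2 fold change of 0.11. IDH1, which makes the 2-oxoglutarate that TET enzymes use, had 96.6 ± 6.94 CPM in WT and 119 ± 36 CPM in LSD1 KO cells, where LSD1 KO library 2 alone stood out at 160.4 CPM. CXXC4, which binds TET2, had 2.76 ± 0.33 and 3.56 ± 1.71 CPM. Of 15 genes listed around base excision repair, 14 were tested and 0 called by edgeR. The list held glycosylases other than TDG, enzymes of later repair steps and the GADD45 genes. The uracil glycosylase UNG had 105, 129.97 and 106 CPM in WT libraries 1 to 3 and 97.6, 59.8 and 79.7 CPM in LSD1 KO libraries 1 to 3. The groups of UNG did not overlap, as was so for 7.74% of all genes tested. Its log2 fold change of -0.52 did not pass in edgeR (q value 0.999, or 0.226 with the block), and DESeq2 called UNG only with the block (q value 0.0314). APEX2, an AP endonuclease, had 35.2 ± 4.38 and 28.1 ± 2.84 CPM (log2 fold change -0.33).

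In the methionine cycle, which supplies the methyl donor S-adenosylmethionine, 13 of 16 genes were tested and 1 was called with the block. MAT2A, the enzyme that makes S-adenosylmethionine outside the liver, had 347, 344 and 337 CPM in WT libraries 1 to 3 and 443, 499.5 and 476 CPM in LSD1 KO libraries 1 to 3. The LSD1 KO libraries were all above the WT libraries, in 3 of 3 pairs, and 7.74% of all genes tested also had groups that did not overlap. MAT2A had a log2 fold change of 0.46 in both fits, with a q value of 0.999 without and 0.058 with the replicate block (edgeR). AHCYL1, a relative of the enzyme that clears the product S-adenosylhomocysteine, had 169 ± 19.5 and 209.6 ± 35.3 CPM (log2 fold change 0.31, q value 0.196 with the block).

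The S phase list was made because DNMT1 and UHRF1 work at replication forks. All its 16 genes, the broader proliferation genes included, were tested, and edgeR called 1 with the block. DESeq2 with the block also called MCM5 (log2 fold change -0.37, q value 0.0579) and MCM4 (-0.35, q value 0.0960), subunits of the replicative helicase. CCNE2, the cyclin E2 of S phase entry, had 27.0, 16.9 and 16.05 CPM in WT libraries 1 to 3 and 17.0, 5.85 and 9.07 CPM in LSD1 KO libraries 1 to 3. The groups overlapped, but LSD1 KO was lower in 3 of 3 pairs. With the block CCNE2 fell by 0.99 on the log2 scale (q value 0.053 from edgeR), and without it the q value was 0.999. The fold change was negative for 14 of the 16 listed genes, with a median of -0.21, beside 8816 of all 17672 genes tested. These genes tend to move together, and 14 of the 16 were also called by replicate number, beside 41.2% of all genes. E2F1, a transcription factor of S phase, had 54.3 ± 7.01 and 42.0 ± 8.01 CPM (log2 fold change -0.37). UHRF1 had a log2 fold change close to that median, and DNMT1 had one of -0.03.

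**Figure D5:**
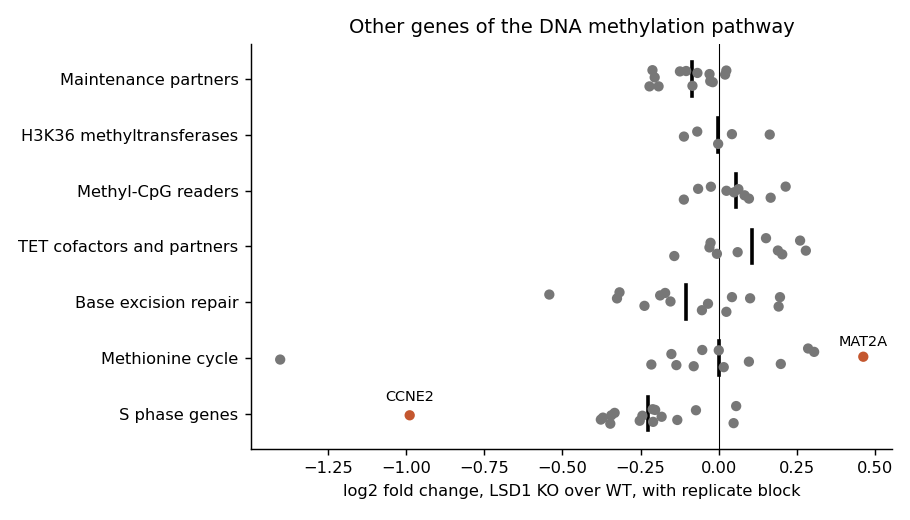
Log2 fold change with the replicate block, LSD1 KO over WT, of each tested gene in 7 lists around the members, one point per gene, with a bar at each list's median and genes with a q value under 0.1 in orange. MAT2A at 0.46 and CCNE2 at -0.99 are the genes called by edgeR, and the grey point at the far left of the methionine cycle is MAT1A.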

How the data were processed

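RNA-seq was measured in 3 WT and 3 LSD1 KO HCT116 libraries, grouped by the labels. The authors checked reads with FastQC, trimmed them with Trimmomatic 0.39 and quantified them with Salmon (version 1.4.0 in the submitters' processing notes) on the GENCODE transcriptome of GRCh38. The deposited values are expected counts for each gene, in whole numbers and without any normalization. How transcripts were summed to genes is not given in the sources used here.

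Counts were tested with edgeR 4.0.16 in R 4.3.3 (TMM, filterByExpr by group, quasi-likelihood test, Benjamini-Hochberg adjustment over all 17672 genes tested, q value under 0.1, the threshold of the paper). CPM values use TMM library sizes, and log2 CPM a prior count of 2. The alternatives were a replicate block, DESeq2 1.42.0, RLE size factors, other filters, a q value under 0.05, and leaving out libraries. Pairing was checked from the data, since no label describes it. Deviations from the group means correlated across genes at 0.553, 0.553 and 0.404 for same-numbered WT and LSD1 KO libraries and at -0.516 to 0.0454 for differently numbered ones, so the numbers were taken to pair the libraries. The biological coefficient of variation was 0.279 without and 0.133 with the block. Steps were tested on simulated data. Floors and intervals of counts cover counting error only.

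Transcript lengths and shared 31-base sequences came from GENCODE v44lift37, with a length for 98.8% of tested genes, and gene positions and promoters from RefSeq on GRCh38.p14, which shares its primary assembly with the build of the files. The members and gene lists were chosen with earlier results of these data known. Besides the members and KDM1A, each list gave its genes with a q value under 0.1 in either fit and the 2 with the smallest p without the block, and DNMT1, UHRF1 and DNMT3B gave the 3 most correlated genes. Some genes that this rule names are not reported here. MAT1A, MCM4, MCM5, KRT19, the other marker genes given by level and ENSG00000256663 were named after their values were seen.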

Additional observations from a re-analysis of the deposited data

How the results depend on the processing

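The count of all genes called was 1, and it was 114 with no filter on low counts, 95 with DESeq2, 282 with the replicate block and 593 with DESeq2 and the block. It was 1 to 26 when 1 library was left out, the 26 without LSD1 KO replicate 2, and 428, 1055 and 198 with the block without replicates 1, 2 and 3. Members called were 0 throughout, except for 0 to 1 with the block when a replicate number was left out, the 1 being UHRF1 without replicate 1. Genes of the context lists called were 0, and 1 with no filter, 1 with DESeq2, 4 with the block (MAT2A, CCNE2, EPCAM and COL1A1), 9 with DESeq2 and the block (UNG, MAT2A, PEG10, MCM4, MCM5, CCNE2, KRT19, COL1A1 and CD68), 0 when 1 library was left out, and 8, 12 and 2 with the block without replicates 1, 2 and 3. In fits of all 6 libraries, the block changed the call of no member and, besides EPCAM in DESeq2, of no list gene other than those named. Of 135 member fold changes under alternatives, 116 kept their sign and their side of the threshold and 18 changed sign, none of them called. TET1 was -0.02 and became 0.085 with the block by edgeR and 0.094 by DESeq2. Leaving out 1 library gave ranges of -0.11 to 0.085 for DNMT1, -0.011 to 0.10 for UHRF2, -0.42 to 0.25 for TET1, -0.45 to 0.25 for TET2, -0.55 to 0.050 for TET3, -0.079 to 0.0030 for TDG, -0.56 to -0.097 for UHRF1, 0.021 to 0.28 for DNMT3A and 0.018 to 0.27 for DNMT3B, and of -0.42 to -0.12 for the S phase median. With the block, leaving out replicate 1 gave 0.40 for TET1 and 0.17 for TET2, leaving out replicate 2 gave -0.050 for UHRF2, and leaving out replicate 3 gave 0.021 for DNMT1 and 0.095 for TET1. The cause was not tested. By replicate number, 7273 genes and 7 members were called, and 4740 to 5768 genes and 3 to 6 members when a number was left out, the lowest counts without replicate 2. KDM1A stayed between -3.01 and -2.95 when 1 library was left out. At 51 to 202 counts per library, TET1 was the member with the least depth after DNMT3L and had the widest interval.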

Other observations

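Genes that DNA methylation is known to keep silent in somatic cells were followed in both genotypes. Of 17 germline genes, 10 had at most 3 counts in every library, among them DAZL and MAEL, beside 34644 of all 60240 genes in the table, a like share, and 4 had enough counts to be tested, with 0 called without and 0 with the replicate block. The exception in level was MAGEB2, a cancer-testis antigen, at 147 ± 25.2 CPM in WT and 143 ± 26.0 CPM in LSD1 KO cells. PIWIL2, of the piRNA pathway, had 0.490, 0.303 and 0.695 CPM in WT libraries 1 to 3 and 0.607, 0.846 and 1.47 CPM in LSD1 KO libraries 1 to 3, overlapping ranges with a log2 fold change of 0.96 (q value 0.999 from edgeR). SYCE1, of the synaptonemal complex, had 0.38 ± 0.34 and 0.44 ± 0.09 CPM.

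Of 14 imprinted genes, whose expression depends on methylation inherited from one parent, 10 were tested and 0 called by edgeR. PEG10 had 39.3, 24.7 and 34.0 CPM in WT libraries 1 to 3 and 19.4, 26.9 and 18.6 CPM in LSD1 KO libraries 1 to 3, a log2 fold change of -0.59 (q value 0.999 from edgeR and 0.268 with the block), and DESeq2 with the block called it at a q value of 0.0992. H19, a noncoding RNA, had 1.73, 2.84 and 2.55 CPM in WT and 4.93, 2.98 and 4.65 CPM in LSD1 KO libraries. Its groups did not overlap, as was so for 7.74% of all genes tested, and its log2 fold change was 0.82 (q value 0.999 from edgeR).

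Among the marker lists, the epithelial adhesion molecule EPCAM fell by 0.98 on the log2 scale with the replicate block (204 ± 39.2 CPM in WT, 104 ± 28.3 CPM in LSD1 KO, q value 0.079 from edgeR) and was not called without it (q value 0.668), while DESeq2 called it without the block (q value 0.0516) and not with it (0.168). KRT18 had 507 ± 142 and 358 ± 13.8 CPM (log2 fold change -0.50, q value 0.999 from edgeR). The epithelial markers did not all go the same way. Of the 5 tested, 4 had a negative and 1 a positive log2 fold change, from -0.97 to 0.42 without the block. COL1A1 rose with the block, from 22.6 ± 1.97 to 32.4 ± 2.04 CPM (log2 fold change 0.52, q value 0.063 from edgeR), and its q value was 0.999 without it. CD68 had 17.8 ± 1.80 and 28.9 ± 5.98 CPM (log2 fold change 0.70, q value 0.993 from edgeR, and a call at 0.0179 by DESeq2 with the block), and LYZ stayed at 0.76 to 1.81 CPM in all libraries.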
